A study of Mus musculus with 3 samples.

Results

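The calprotectin genes S100a8 and S100a9 were followed as a pair of rows in single-cell UMI tables of mouse bone marrow. Bone marrow flushed from femurs was sequenced with droplet-based 3′ libraries 2 weeks after modelling, with 1 library for each of 3 conditions. The control library came from flox mice with the genotype field WT, injected with PBS, and the osteomyelitis library from flox mice, also WT in that field, injected with S. aureus. The third library, titled cko_om, came from mice labelled Trim59 knock out and injected with S. aureus, and is called Trim59 knockout osteomyelitis here. The labels give 1 batch date for the 3 libraries. The Cre line of the knockout, the age of the mice and the number of mice per library are not given in the sources used here.

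The rows of the tables carry no gene names, so the names S100a8 and S100a9 were inferred from level and row position, with the correlation between the rows as a condition. The 2 rows were chosen by their UMI sums over the 3 tables, among 32285 rows of which the last 60 were left out. Rows 4878 and 4879, counted from 1, held 22165388 and 18789913 UMIs, and the rows just outside the choice were row 31451 with 3689549 and row 29679 with 3664804. The rule accepted the pair as the neighbours S100a8 and S100a9 because they lay within 5 rows of each other and their log-normalised values correlated above 0.8. The correlation was 0.961 over 28036 barcodes with 500 to 5000 detected features, and 0.976, 0.954 and 0.946 in the control, osteomyelitis and Trim59 knockout osteomyelitis libraries. These values defined the pair and are not results. Which of the rows is S100a8 and which is S100a9 was not decided, so they are called the first row (4878) and the second row (4879).

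S100a8 and S100a9 encode small calcium-binding proteins that pair into calprotectin, one of the most abundant proteins in the cytosol of neutrophils and also found in monocytes. Calprotectin withholds zinc and manganese from bacteria, S. aureus among them, and once released it can signal through Toll-like receptor 4 and the receptor RAGE on other cells. In marrow, its transcripts are known to be strongest in the maturing neutrophil lineage and weak or missing in lymphocytes and red cell precursors.

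On mm10, the build named in the submitters' processing notes, the RefSeq annotation (GRCm38.p6) places S100a8 on the plus strand of chromosome 3 from 90669071 to 90670034 and S100a9 on the minus strand from 90692630 to 90695721. The genes face each other across 22595 bases with 0 other RefSeq genes lying wholly between them. The sequences around the annotated starts are shown to place the pair in the genome, and each gives the 150 bases before the start and the first 20 bases after it. They lie at chr3:90668921-90669090 for S100a8 and chr3:90695702-90695871 for S100a9, each written on its own strand. Capitals mark the TATA-box letters TATAAA, searched on both strands.
S100a8: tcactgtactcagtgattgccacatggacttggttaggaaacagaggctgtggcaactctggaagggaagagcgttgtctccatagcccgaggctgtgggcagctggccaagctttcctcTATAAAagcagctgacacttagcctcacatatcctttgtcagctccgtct
S100a9: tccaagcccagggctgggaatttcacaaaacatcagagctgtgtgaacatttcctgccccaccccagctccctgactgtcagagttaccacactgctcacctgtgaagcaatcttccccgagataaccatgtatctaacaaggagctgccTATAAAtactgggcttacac
The match began 30 bases before the start in S100a8, at -30, and at base 1 of the annotated gene in S100a9. Of 32851 RefSeq promoters cut to the same 170 bases, 8.10% held TATAAA on either strand. The letters TTGCNNAA, a core of C/EBP sites, were in neither of the windows and in 6.07% of the promoters.

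Each library had between 8529 and 8790 cells after barcodes outside 500 to 5000 detected features and doublets were removed, with 54813842, 61247541 and 57651999 UMIs in the control, osteomyelitis and Trim59 knockout osteomyelitis libraries. The median cell had 4264, 4039.5 and 3801 UMIs in the same order. Barcode sequences shared between libraries numbered 27 for osteomyelitis and control, 22 for Trim59 knockout osteomyelitis and control, and 27 for the S. aureus libraries. A single library stood for each condition, so conditions could not be tested against each other, and all intervals below are 95% intervals of counting error alone that do not cover differences between mice. Because no row has a name, neither marrow cell types, nor the Trim59 level, nor the receptors and partners of calprotectin could be looked up, and clusters are given by number.

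The pair took up close to the same part of all UMIs in the 3 conditions. It held 18.9% of the UMIs of control cells, 20.5% of those of osteomyelitis cells and 20.5% of those of Trim59 knockout osteomyelitis cells. Exact Poisson intervals were no wider than 0.0117 percentage points on either side. The first row alone held 10.2%, 10.7% and 11.4%, and the second row 8.69%, 9.82% and 9.11%. The next row held 1.91%, 2.45% and 2.17%, a gap that the choice of the 2 highest rows fixed and that is not a result. On the scale of log2 ratios of CPM, the UMIs of a feature scaled to a common library total, the pair was 0.12 higher in the osteomyelitis library and 0.12 higher in the Trim59 knockout osteomyelitis library than in the control library. The difference between the S. aureus libraries was -0.00028 (interval -0.0014 to 0.00087). When each cell was given the same weight, both differences from control turned in direction and the S. aureus libraries differed by -0.25, as described below.

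None of these log2 ratios reached 2-fold, so 0 of the 2 rows were past 2-fold in any comparison. As background, among features whose UMIs in the compared libraries added up to 100 or more, 4.91% were at least 2-fold higher and 10.9% at least 2-fold lower in osteomyelitis than in control. The shares were 4.95% and 5.42% for Trim59 knockout osteomyelitis against control, and 1.05% and 0.376% for Trim59 knockout osteomyelitis against osteomyelitis. The median log2 ratio of all these features was -0.48 for osteomyelitis, over 11940 features, and -0.36 for Trim59 knockout osteomyelitis, over 11949, both against control, so the pair lay above the middle of all features in both. Between the S. aureus libraries the median was 0.12 over 11703 features, and the pair lay below it. The rows differed from each other in these ratios. In osteomyelitis against control the first row was at 0.067 and the second at 0.18, whereas in Trim59 knockout osteomyelitis against control the first row was at 0.16 and the second at 0.068. Between the S. aureus libraries the first row was 0.093 higher in Trim59 knockout osteomyelitis and the second row was at -0.11.

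The distributions over cells differed where the totals were similar. In control marrow the pair share, the UMIs of both rows as a percentage of the UMIs of the cell, split the cells into a low and a high group. Of control cells, 41.3% (exact interval 40.2 to 42.3) were below 1% and 47.5% (46.5 to 48.6) were at 25% or more, and 11.2% (10.5 to 11.9) lay between. In osteomyelitis the cells in between made up 47.7% (46.7 to 48.8), with 19.4% below and 32.9% above. In Trim59 knockout osteomyelitis they made up 38.6% (37.5 to 39.6), with 32.6% below and 28.9% above. The intermediate range was therefore the largest of the 3 ranges in both S. aureus libraries and the smallest in the control library. The limits of 1% and 25% were set after the distributions had been seen.

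**Figure D1:**
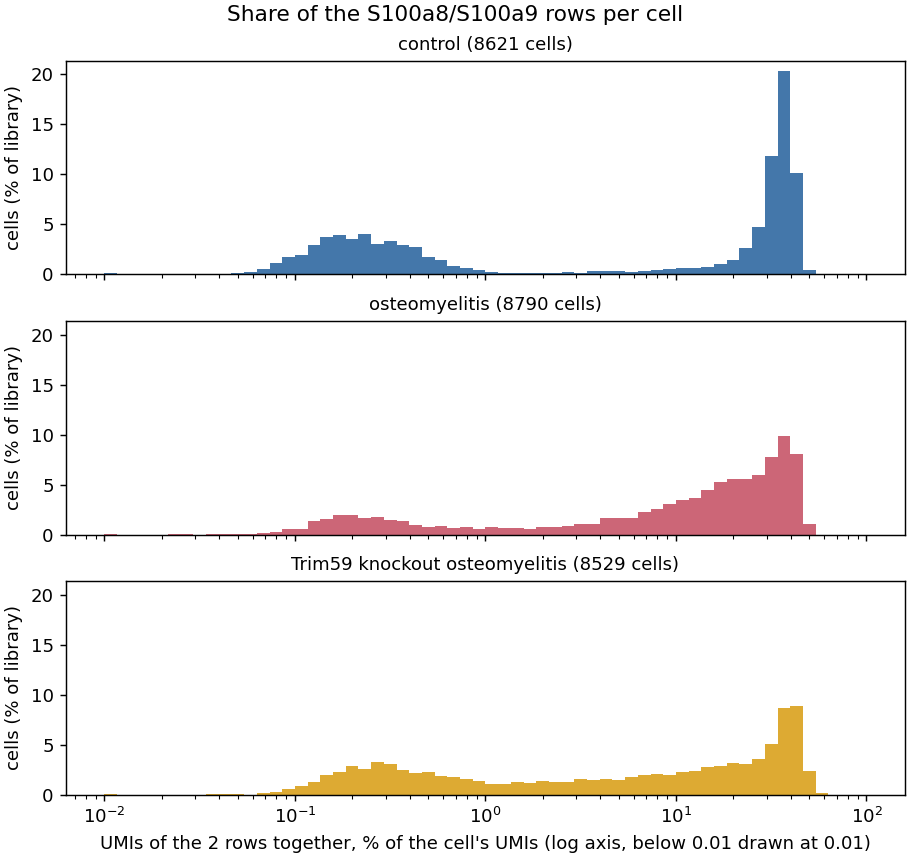
Histograms of the pair share per cell (horizontal log axis, percent of the UMIs of the cell) for the 3 libraries, as a percentage of the cells of each library (vertical axis). Control cells form a low and a high peak with 11.2% of cells from 1% to 25%, and this range holds 47.7% and 38.6% of cells in the S. aureus libraries.

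The median cell had a pair share of 21.8% in control, 15.4% in osteomyelitis and 6.96% in Trim59 knockout osteomyelitis. The means were 18.7%, 17.6% and 14.7%. The 5th and 95th percentiles were 0.108% and 41.9% in control, 0.162% and 42.2% in osteomyelitis, and 0.156% and 44.2% in Trim59 knockout osteomyelitis. The 95th percentiles thus lay close together, while the medians differed between control and the S. aureus libraries. The 5th percentiles were at low levels that are treated as background below, so their differences are not read. With cells weighted equally the log2 ratios against control were -0.090 for osteomyelitis and -0.34 for Trim59 knockout osteomyelitis, and -0.25 between the S. aureus libraries. The pooled ratios against control thus had the opposite sign, and the pooled ratio between the S. aureus libraries, whose interval included 0, had been close to 0. UMIs per cell in clusters 2, 4 and 6, given below with their pair shares, were higher in the S. aureus libraries, and their part in the change of sign was not tested.

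A limit of 5% of UMIs gave 56.3% (55.2 to 57.3) of control cells, 71.1% (70.2 to 72.1) of osteomyelitis cells and 53.8% (52.7 to 54.9) of Trim59 knockout osteomyelitis cells. This is a range of a measured share and not a cell type. Within 1 percentage point of the limit, from 4% to 6%, lay 71 control cells, 383 osteomyelitis cells and 352 Trim59 knockout osteomyelitis cells. The order of the libraries depends on where the limit is set. At 1% the shares were 58.7%, 80.6% and 67.4% in the same order of libraries, and at 10% they were 54.6%, 60.8% and 45.3%. The osteomyelitis library was highest at 1%, 5% and 10%, while the Trim59 knockout osteomyelitis library was above control at 1% and below it at 5% and 10%. At 25% or more, given above, control was highest, with 47.5% against 32.9% and 28.9%. Thinning every cell to 1000 UMIs, which left out 68, 12 and 31 shallower cells, gave 56.7%, 71.3% and 53.8% at the limit of 5%. Apart from sampling, thinning keeps the pair share of each cell, so little change was possible.

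Almost every cell had at least 1 UMI of the pair, so detection as such separated nothing. Cells without one numbered 11 of 8621, 5 of 8790 and 8 of 8529. The 7 clusters with low levels described below had a UMI of the pair in 99.7%, 99.7% and 99.6% of their cells, at medians of 4488.5, 10033.5 and 5335 UMIs per cell. Levels of this size were treated as background and were not read as expression.

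To place the pair share, the cells of the 3 libraries were clustered together into 11 clusters, numbered by size. Neither row of the pair was among the 3000 variable features on which the clusters were made, and no cluster was named. The median pair share in the control library was 32.9%, 38.5% and 33.3% in clusters 2, 4 and 6, and between 0.139% and 0.342% in clusters 3, 5, 7, 8, 9, 10 and 11. These low clusters had medians of 0.145% to 0.283% in osteomyelitis and 0.139% to 0.307% in Trim59 knockout osteomyelitis. Among clusters 2, 4 and 6, cluster 4 had the highest median in every library, while the ranges of cells from the 10th to the 90th percentile overlapped between all 3. The low clusters overlapped each other in the same way, so their order was not read.

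Cluster 1 stood between these levels. Its cells had a median pair share of 12.4% in osteomyelitis, with 10th and 90th percentiles of 2.05% and 24.5%, and 5.89% in Trim59 knockout osteomyelitis, with percentiles of 0.552% and 20.8%. It held 4429 osteomyelitis cells (50.4%, interval 49.3 to 51.4), 3849 Trim59 knockout osteomyelitis cells (45.1%, 44.1 to 46.2) and only 12 control cells, so no control level is read for it. The lower median in the Trim59 knockout osteomyelitis library came with more cells of low level, as 19.8% of its cluster 1 cells and 5.53% of those of osteomyelitis were below 1%. Among the cells with a pair share from 1% to 25%, cluster 1 held 90.2% in osteomyelitis and 88.4% in Trim59 knockout osteomyelitis, against 1.24% in control. In control, 85.7% of the cells in this range belonged to clusters 2, 4 and 6. Cells of cluster 1 were shallow, with medians of 2937 and 2613 UMIs and 776 and 749 detected features in the S. aureus libraries, and the part that depth has in their level was not tested. In cells of 2411 to 3226 UMIs, the middle of 3 equal groups of that cluster by depth, the mean pair share was 12.8% in osteomyelitis and 8.25% in Trim59 knockout osteomyelitis, against 13.0% and 8.53% for all its cells. The median depth of this group, 2815 and 2761 UMIs, was near that of the cluster, so these means compare the libraries at like depth and do not bear on the effect of depth itself.

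**Figure D2:**
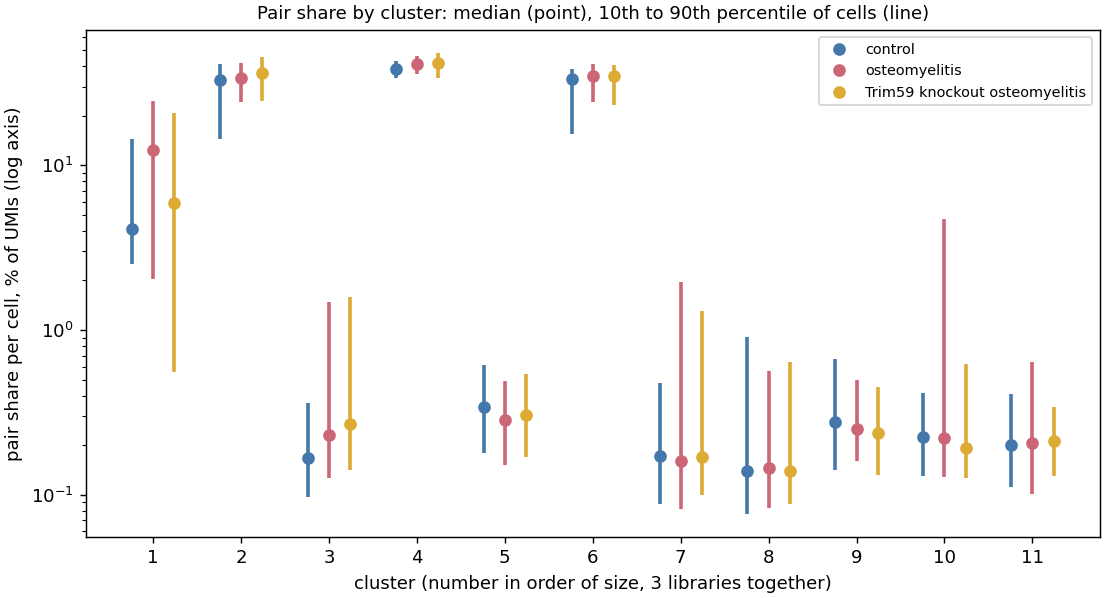
Pair share per cell (vertical log axis, percent of UMIs) in the 11 clusters (horizontal axis) of each library, with the median as a point and the 10th to 90th percentile of cells as a line. The medians of clusters 2, 4 and 6 lie above 30%, the S. aureus cells of cluster 1 have medians of 12.4% and 5.89%, and the medians of the other clusters lie below 0.35%, with 12 control cells in cluster 1.

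Clusters 2, 4 and 6 carried most of the pair. They held 57.2% of control cells and 98.5% of the pair UMIs of that library. In osteomyelitis they held 31.1% of cells and 83.6% of pair UMIs, and in Trim59 knockout osteomyelitis 29.3% of cells and 89.6% of pair UMIs. Cluster 1 held 15.3% and 9.19% of the pair UMIs in the S. aureus libraries. Clusters 2, 4 and 6 thus held a smaller share of cells in the S. aureus libraries, but still most of the pair UMIs. Their cells were deeper there, with median UMIs of 7943 in osteomyelitis and 8782.5 in Trim59 knockout osteomyelitis against 4194 in control. The part of depth in the similar totals was not tested.

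Within clusters 4 and 6 the mean pair share was higher in both S. aureus libraries than in control. In cluster 4 it was 38.3% in control, 41.0% in osteomyelitis and 41.1% in Trim59 knockout osteomyelitis. In cluster 6 it was 30.7%, 33.3% and 33.2%. These differences were smaller than the spread of single cells, since in cluster 4 the 10th and 90th percentiles were 33.8% and 43.0% in control and 35.9% and 46.0% in osteomyelitis. UMIs per cell moved with them, from a median of 7641.5 in control to 12092 and 11866 in the S. aureus libraries in cluster 4, and from 17617 to 24991 and 22861 in cluster 6. In groups of nearer depth the libraries kept this order, but the part of depth in these differences was not tested. Depth here includes the UMIs of the pair itself, and in the cluster 4 group the median depths were 9323, 10091 and 9996 UMIs. Cells of cluster 4 with 8224 to 11628 UMIs had means of 39.2%, 41.4% and 41.8%, and cells of cluster 6 with 18777 to 25248 UMIs had means of 31.1%, 36.6% and 36.6%.

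In cluster 2 the direction depended on the depth of the cells compared. Over all its cells the mean was 30.4% in control, 33.2% in osteomyelitis and 35.7% in Trim59 knockout osteomyelitis, with median depths of 3175, 5922 and 6126 UMIs. Among cells of 3455 to 5512 UMIs it was 36.8% in control, 29.4% in osteomyelitis and 31.6% in Trim59 knockout osteomyelitis. The control library was thus lowest over all cells of cluster 2 and highest at like depth. The depth groups were added after the values by cluster had been seen.

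The difference in mean pair share between libraries was divided into a part from cluster shares and a part from levels within clusters. The osteomyelitis mean minus the control mean was -1.13 percentage points, of which -2.40 came with cluster shares and 1.26 with levels within clusters. For Trim59 knockout osteomyelitis the difference was -3.98, with parts of -5.87 and 1.89. The part within clusters uses means over all cells, also for cluster 2, where control was highest at like depth. Cluster 1 had fewer than 20 control cells, so it was given the mean of the other library and entered the first part only, which left remainders of 0.00962 and 0.00339 percentage points. The parts depend on how the cells were clustered, and with 30 principal components the part within clusters was -1.47 and -0.26 and the part from cluster shares 0.343 and -3.71, so that for osteomyelitis both parts changed sign.

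**Figure D3:**
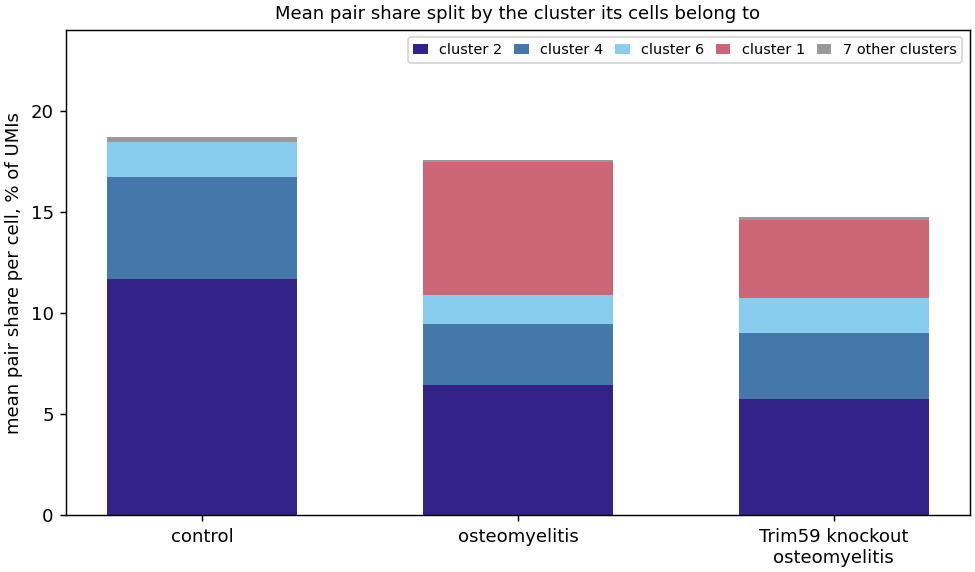
Mean pair share per cell (vertical axis, percent of UMIs) in the 3 libraries, stacked by the cluster of the cells. The bars reach 18.7%, 17.6% and 14.7%, and cluster 1 makes up 6.55 and 3.85 percentage points of the bars of the S. aureus libraries and 0.00848 of the control bar.

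Cells with at least 5% of UMIs from the pair were also found in the 7 low clusters, where they numbered 67 of 3674 in control, 49 of 1626 in osteomyelitis and 43 of 2184 in Trim59 knockout osteomyelitis. Cluster 3 held 15 of 1003, 28 of 851 and 27 of 723 such cells in the same order, and cluster 7 held 14 of 529, 7 of 155 and 7 of 201. In control, 29 of the 347 cells of cluster 8 had at least 5% of their UMIs from the pair, which raised its mean to 1.96% against a median of 0.139%. The cells of cluster 8 with this level numbered 4 of 142 in osteomyelitis and 4 of 144 in Trim59 knockout osteomyelitis. In cluster 5 they numbered 6 of 1333, 4 of 266 and 3 of 750. The part of doublets in these cells was not tested.

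The balance between the rows, which the rule did not use, was measured as the share of the pair UMIs in the first row. It was 54.1% (exact interval 54.0 to 54.1) in control, 52.2% (52.1 to 52.2) in osteomyelitis and 55.6% (55.6 to 55.7) in Trim59 knockout osteomyelitis. These intervals do not overlap, but with 1 library each a difference between libraries as such cannot be told apart from one between conditions. In clusters 2, 4 and 6 together the balance was 54.1%, 53.2% and 56.1% in the same order. The Trim59 knockout osteomyelitis library had the largest first-row share in each of the 3 clusters, at 55.6%, 56.4% and 56.4%, against 52.8%, 54.1% and 55.6% in control and 52.2%, 53.7% and 53.9% in osteomyelitis. Cells of these clusters were deeper in the S. aureus libraries, with medians of 4194, 7943 and 8782.5 UMIs in control, osteomyelitis and Trim59 knockout osteomyelitis. Over all cells thinned to 1000 UMIs the balance was 53.4%, 50.1% and 54.1%, a smaller gap between Trim59 knockout osteomyelitis and control. As a mean over cells it was 53.9%, 50.3% and 55.6%, and the gap was not smaller. Thinning changes the weight of cells but, apart from sampling, not the balance of any cell, and cells of cluster 1 are included. These values therefore do not bear on depth within clusters 2, 4 and 6, whose part was not tested.

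In cluster 1 the second row made up the larger part. The first-row share there was 45.8% (45.7 to 45.9) in osteomyelitis and 49.4% (49.3 to 49.5) in Trim59 knockout osteomyelitis, lower by over 6 percentage points than in clusters 2, 4 and 6 of the same libraries. Over the summed UMIs of the cluster the first row was at 6.24% and the second at 7.38% in osteomyelitis, and at 4.71% and 4.82% in Trim59 knockout osteomyelitis. Single cells of cluster 1 varied widely. Among cells with at least 50 pair UMIs, the 10th percentile, median and 90th percentile of the first-row share were 34.3%, 45.6% and 59.9% over 3992 osteomyelitis cells and 36.5%, 48.7% and 67.3% over 2695 Trim59 knockout osteomyelitis cells. In cluster 4 the same percentiles were 50.7%, 53.7% and 56.4% over 644 osteomyelitis cells, and 49.9%, 54.0% and 58.0% over 1134 control cells. Pair UMIs per cell were fewer in cluster 1, which widens this spread by counting error. In osteomyelitis a first-row share below an even balance was not particular to cluster 1. It was 47.1%, 49.3%, 44.9% and 47.4% in the low clusters 5, 8, 9 and 11, whose levels were treated as background. The intervals of clusters 8 and 11 included an even balance. In Trim59 knockout osteomyelitis cluster 1 was the only cluster below an even balance, and the low clusters lay from 53.1% to 72.7%.

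**Figure D4:**
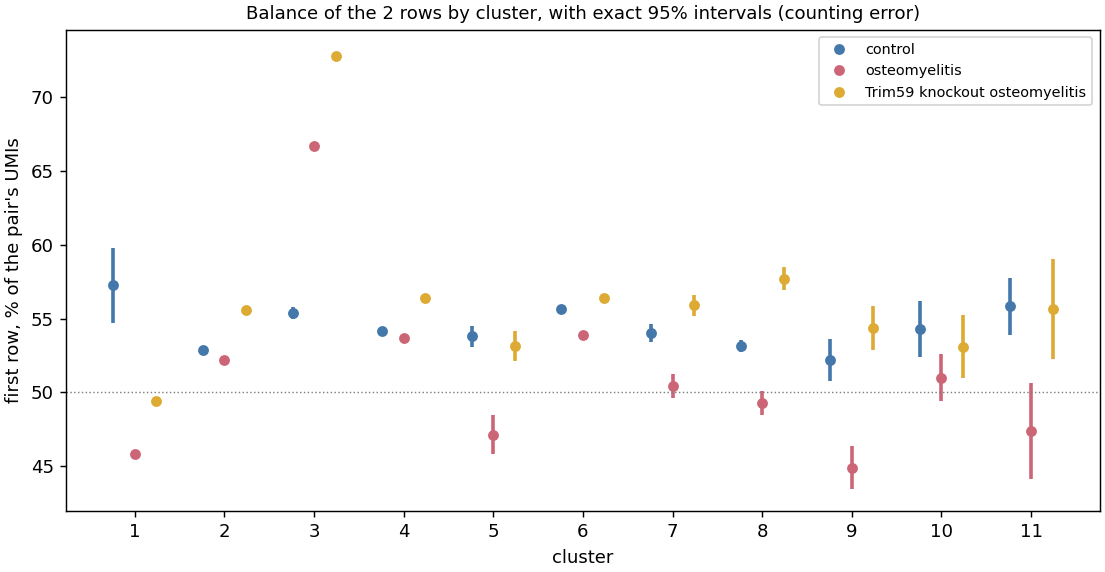
First-row share of the pair UMIs (vertical axis, percent) by cluster (horizontal axis) and library, with exact 95% intervals as lines. Cluster 3 lies at 66.7% and 72.7% in the S. aureus libraries against 55.4% in control, and cluster 1 at 45.8% and 49.4%.

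Cluster 3 had the opposite balance. Its median pair share was at the low level treated here as background in all 3 libraries, at 0.166%, 0.230% and 0.271%. Its first-row share was 55.4% (54.9 to 55.8) in control, 66.7% (66.4 to 67.0) in osteomyelitis and 72.7% (72.5 to 73.0) in Trim59 knockout osteomyelitis. Few cells weigh heavily in these pooled shares. In control, 6 cells from 10% to 20% held 14621 of 50421 pair UMIs. From 5% to 10%, 23 osteomyelitis cells held 26160 of 91059, and 21 Trim59 knockout osteomyelitis cells held 28968 of 90144. Single cells of cluster 3 varied widely, which the intervals do not cover. Among those with at least 50 pair UMIs, the 10th percentile, median and 90th percentile were 47.0%, 58.1% and 84.7% over 53 control cells. They were 44.1%, 80.0% and 92.7% over 248 osteomyelitis cells, and 55.9%, 84.7% and 94.4% over 213 Trim59 knockout osteomyelitis cells. The difference between libraries in the pooled first-row share was wider among the cells of cluster 3 with a pair share from 0.5% to 5%. The cells in this range made up 54 of 1003 control cells (5.38%, interval 4.07 to 6.97), 176 of 851 osteomyelitis cells (20.7%, 18.0 to 23.6) and 174 of 723 Trim59 knockout osteomyelitis cells (24.1%, 21.0 to 27.4). Their first-row share was 56.9% (56.0 to 57.9) in control, 73.9% (73.4 to 74.3) in osteomyelitis and 82.7% (82.4 to 83.1) in Trim59 knockout osteomyelitis. The first row was at a similar part of their UMIs in the 3 libraries, 1.23%, 1.08% and 1.28%, while the second row was at 0.933%, 0.381% and 0.266%. The difference depended on the level within this range. From 0.5% to 1% the first-row share was high in every library, at 76.1% over 29 control cells, 80.3% over 87 osteomyelitis cells and 82.7% over 81 Trim59 knockout osteomyelitis cells. From 2% to 5% it was 52.7% over 17 control cells, 69.9% over 38 osteomyelitis cells and 80.7% over 36 Trim59 knockout osteomyelitis cells. Between these ranges, from 1% to 2%, it was 77.5% over 8 control cells, 75.2% over 51 osteomyelitis cells and 86.2% over 57 Trim59 knockout osteomyelitis cells, so control was not the lowest there. The control value of the whole range therefore rests on few cells. These ranges were picked with the values in view.

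Cells of cluster 3 below 0.2% had first-row shares of 53.7%, 51.7% and 61.2%. The counting intervals of these cells and of those from 0.5% to 5% did not overlap in any of the 3 libraries. From 0.2% to 0.5% the first-row share was 57.6%, 64.2% and 70.1% over 264, 297 and 307 cells. The higher first-row share in the S. aureus libraries was thus also seen in this range of low levels. The part of free RNA in any of these ranges was not tested. By depth, the cells from 0.5% to 5% had medians of 6970, 13423.5 and 13876 UMIs in the control, osteomyelitis and Trim59 knockout osteomyelitis libraries. The part of depth in the larger share of such cells in the S. aureus libraries was not tested.

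Over all cells the first-row share had a peak at low levels of the pair in each library, from 1% to 2% in control and Trim59 knockout osteomyelitis and from 0.5% to 1% in osteomyelitis, where it was 70.3% over 279 cells. Cluster 3 held 551 of the 3519 pair UMIs at this peak in control, 8577 of 12972 in osteomyelitis and 11771 of 27995 in Trim59 knockout osteomyelitis. The peaks were therefore not made up of like cells. In the range from 1% to 2% the first-row share was 74.8% over 77 control cells, 67.4% over 253 osteomyelitis cells and 71.7% over 445 Trim59 knockout osteomyelitis cells. In the range from 10% to 20% it was 54.0%, 46.1% and 50.3%, and at 40% or more it was 54.3%, 53.2% and 56.1%. The osteomyelitis library dipped below an even balance at intermediate levels, where the control library, with 314 cells from 10% to 20%, did not. In this range 1652 of 1731 osteomyelitis cells belonged to cluster 1, with a first-row share of 45.1%, against 2 of 314 control cells. The dip thus went with the balance of cluster 1 given above, and the range does not compare like cells between libraries. A fall from low to high levels was seen inside cluster 1, from 60.7% and 62.9% at 1% to 2% to 45.1% and 48.3% at 10% to 20% in the S. aureus libraries. Level and balance were computed from the same UMIs, and these values are a description.

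**Figure D5:**
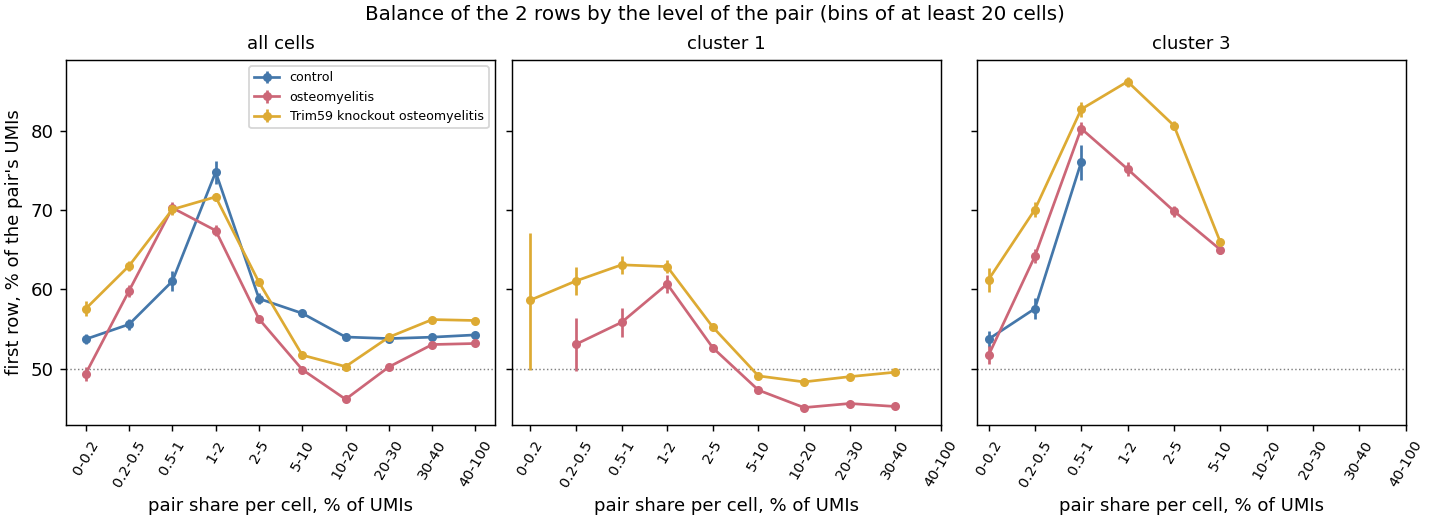
First-row share of the pair UMIs (vertical axis, percent) against the pair share per cell (horizontal axis, ranges in percent of UMIs) for all cells, cluster 1 and cluster 3, with exact 95% intervals and ranges of at least 20 cells. In all cells the curves peak between 0.5% and 2% and the osteomyelitis curve has its lowest point, 46.1%, from 10% to 20%. There 1652 of its 1731 cells belong to cluster 1.

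The rows most like the pair were sought by the Pearson correlation of log-normalised values over cells, averaged over the 3 libraries, among 10075 rows with at least 100 UMIs in each. They have no names and are given by row number. Row 19844 correlated at 0.90, 0.69 and 0.76 with the pair in the control, osteomyelitis and Trim59 knockout osteomyelitis libraries, and row 11464 at 0.88, 0.60 and 0.68. The most opposed were row 27786, at -0.80, -0.68 and -0.70, and row 27621, at -0.82, -0.69 and -0.64. Row 19844 held 0.333%, 0.331% and 0.351% of the UMIs of cells in the 3 libraries, far below either member of the pair. Fewer rows followed the pair in the S. aureus libraries. Correlations of at least 0.5 were reached by 82 rows in control, 11 in osteomyelitis and 32 in Trim59 knockout osteomyelitis, and 11 rows reached it in all 3. When the cells of cluster 1 were left out, the numbers were 82, 91 and 134, with 64 in all 3. The cells of a library share its depth and preparation, and these correlations are descriptions.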

How the data were processed

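The authors deposited UMI counts as whole numbers for each row and barcode, without normalization, made with Cell Ranger 7.1.0 on mm10 per the labels. The tables name no rows. The pair, the ranges and the lists were chosen with earlier results of these data known. Barcodes with 500 to 5000 detected features were kept, after the methods (9315, 9514 and 9207). Scrublet (scanpy 1.11.5, Python 3.11.15) marked 242, 1 and 2 barcodes by its own threshold, so in every library the highest scores were removed at 0.8% per 1000 cells (694, 724 and 678). The mitochondrial limit of 20% was not applied, since the rows have no names.

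Counts were scaled to 10000 per cell and log-transformed in Seurat 5.3.0 (R 4.3.3). With 3000 variable features and 15 principal components, Louvain resolutions from 0.1 in steps of 0.05 were tried to reach 12 clusters, and 0.1 gave the nearest number, 11. Shares have exact Clopper-Pearson 95% intervals, sums exact Poisson ones, and log2 ratios (pseudocount 1 CPM) large-count Poisson ones. They cover counting error only. The functions were tested on simulated data. Named rows are the pair and, by correlation, the 2 most like and the 2 most opposed. Promoter sequences and gene positions are from RefSeq (GRCm38.p6), where both symbols matched. The alternatives are given in the closing section.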

Additional observations from a re-analysis of the deposited data

Results flagged for a closer look

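The pair was also measured in the barcodes left out for their number of detected features, where its share of UMIs was above that of control in both S. aureus libraries. In barcodes under 500 detected features it held 11.6% of UMIs in osteomyelitis (921 barcodes) and 6.38% in Trim59 knockout osteomyelitis (928 barcodes), against 1.42% in control (394 barcodes). The first-row share there was 43.1%, 46.4% and 52.9% in the same order. In barcodes over 5000 detected features it held 3.74% in osteomyelitis (533 barcodes) and 3.37% in Trim59 knockout osteomyelitis (448 barcodes), against 2.82% in control (390 barcodes). The median barcode over 5000 features had a pair share of only 0.261% in osteomyelitis and 0.459% in Trim59 knockout osteomyelitis, against 0.119% in control. By median, the S. aureus libraries were thus in the other order. The counting intervals of the pooled shares did not overlap those of control, and with 1 library per condition the differences were not tested.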

How the results depend on the processing

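No paired analysis was possible because each condition had 1 library. The limits are that condition and library cannot be told apart, that row names are inferred, and that weighting, filtering and clustering move the values as follows. Ratios are log2, in the order osteomyelitis against control, Trim59 knockout osteomyelitis against control and, where a value is given, Trim59 knockout osteomyelitis against osteomyelitis. The pooled ratio of the pair was 0.032 and 0.031 with every barcode, 0.030, 0.031 and 0.00087 with at least 200 features, no upper limit and no doublet removal together, 0.10, 0.087 and -0.017 without doublet removal, and 0.15 and 0.15 with the pair out of the denominator. It was -0.090, -0.34 and -0.25 as a mean over cells, so both differences from control turned in direction. In cells thinned to 1000 UMIs it was -0.099, -0.35 and -0.25. Thinning also gives each cell the same weight, so this is nearly the same measure and no separate check. Without cluster 1, left out after seeing the data, the pooled ratio was 0.26, 0.30 and 0.040. The cause of these shifts was not tested.

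In the order control, osteomyelitis and Trim59 knockout osteomyelitis, the first-row share was 54.1%, 52.5% and 55.9% with every barcode, 53.4%, 50.1% and 54.1% in thinned cells, 53.9% and 50.3% as a mean over cells in the first and second of these, and 52.2% in osteomyelitis without doublet removal. Cells with at least 5% of UMIs from the pair made up 53.9%, 68.7% and 51.6% of every barcode, and the limits of 1% and 10% gave 58.7%, 80.6% and 67.4%, and 54.6%, 60.8% and 45.3%. The part of the mean difference within clusters, for osteomyelitis and Trim59 knockout osteomyelitis against control, was 1.17 and 1.60 at resolution 0.8, -1.47 and -0.26 with 30 principal components, 0.162 and 0.193 with components centred by library, 1.81 and 1.64 with 2000 variable features (at resolution 0.15, which gave 12 clusters), and 0.991 and 1.64 without doublet removal. Its direction thus depended on the number of components, as did that of the part from cluster shares for osteomyelitis, at 0.343 with 30 components against -2.40. Features past 2-fold numbered 1885, 1240 and 167, and 494, 398 and 38 with a pseudocount of 10 CPM. The other 28 alternative values lay inside the 95% counting interval of the reported value, were identical to it, or were the counts of features with at least 30 UMIs, 1925, 1277 and 181. Several of these settings could hardly move a value, so their number is no measure of stability. No cell had over 20% of its UMIs in the last 60 rows, which held 0.0063%, 0.0042% and 0.0059% of UMIs. Neither row of the pair was a variable feature, and 10 CPM is small beside the level of the pair. The change of sign from -0.00028 to 0.00087 was about as large as the counting interval on either side.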

Other observations

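Among cells with at least 5% of UMIs from the pair, the level and the balance differed between shallow and deep cells. Both rose in steady steps in osteomyelitis, as did the first-row share in Trim59 knockout osteomyelitis, but not the other measures. When these cells were put into 5 equal groups by UMIs in each library, the median pair share was 23.2% in the shallowest and 36.6% in the deepest group in control, 13.4% and 39.2% in osteomyelitis, and 11.3% and 38.5% in Trim59 knockout osteomyelitis. The level was highest in the fourth group in control and Trim59 knockout osteomyelitis, at 38.6% and 40.6%. The first-row share was 53.1% and 55.1% in control, 44.2% and 53.6% in osteomyelitis, and 47.7% and 56.4% in Trim59 knockout osteomyelitis. In control the first-row share was lowest in the second group, at 52.5%. The shallowest groups had similar depths, with medians of 2088, 2267 and 2186 UMIs, but the libraries differed in the clusters of these cells. Of cells with at least 5%, the shallow cluster 1 held 3473 of 6251 in osteomyelitis and 2065 of 4588 in Trim59 knockout osteomyelitis. In control it held 4 of 4853. The groups therefore do not compare like cells between libraries, and the part of cluster 1 in these values was not tested.

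Cells removed as doublets had a pair share of UMIs of 18.9%, 18.6% and 16.5% in the control, osteomyelitis and Trim59 knockout osteomyelitis libraries.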
